A study of Mus musculus with 12 samples.

Results

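Transcripts of 8 inflammatory genes were followed in BV2 cells, an immortalised mouse microglial line, exposed to oxyhaemoglobin: the cytokine genes Tnf, Il6, Il1a, Il1rn and Il10, the prostaglandin synthase gene Ptgs2, and the secreted acute phase genes Lcn2 and Saa3. They and the gene lists below were chosen with earlier results of these data known. The 8 genes were picked by gene name, and each matched 1 of the 22935 genes in the deposited tables. All 9 libraries analysed here came from cells given 10 µM oxy-Hb, the oxygen-carrying haemoglobin of red cells. In 3 libraries C3a, the fragment of complement protein C3 that binds C3aR, had been added at a labelled 20 ug/ul, a very high concentration for a peptide, so that the unit is uncertain. In 3 libraries C3aRA, which the labels do not spell out, had been added at 50 µM, and 3 libraries had oxy-Hb alone. The series is titled for the C3/C3aR pathway in white matter injury after subarachnoid haemorrhage, 3 PBS samples were not analysed here, and every group was therefore measured against a background of oxy-Hb. Only 1 cell line was used.

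Microglia and macrophages make these products when Toll-like receptors or cytokine receptors activate NF-kB, AP-1 and C/EBP factors. Tnf and Il6 encode secreted pro-inflammatory cytokines, Il1a encodes an agonist of the interleukin 1 receptor, and Il1rn encodes the antagonist that occupies the same receptor without signalling. Il10 encodes an anti-inflammatory cytokine. Ptgs2 encodes cyclooxygenase 2, the inducible enzyme that turns arachidonic acid into the precursor of prostaglandins. Lcn2 encodes lipocalin 2, which binds bacterial siderophores, and Saa3 encodes a serum amyloid A protein, both made in inflammation. Many of these mRNAs are short-lived and carry AU-rich elements, which proteins such as tristetraprolin bind to hasten decay.

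Library totals ran from 12934794 to 20479002 counts, and 3 counts, taken here as the floor for counting error alone, corresponded to 0.156 to 0.236 CPM (read counts relative to library size, scaled with TMM). Separate cultures are not stated for the replicates, and p-values therefore reflect a spread among libraries that could be technical in part or in whole. In bulk RNA, fewer cells expressing a gene and less RNA per cell cannot be told apart. Sums over markers or ribosomal protein genes and single marker levels are per library total, without TMM scaling. The macrophage markers Cd68 (804 to 1004 CPM over the 9 libraries) and Trem2 (125 to 209 CPM) were abundant, whereas the homeostatic microglial markers Tmem119 (0.932 to 2.41 CPM), P2ry12 (0.232 to 3.90 CPM) and Fcrls (0 to 0.756 CPM) were near 0. C3a replicate 2 stood apart from the other 8 libraries. On the first principal component it scored -76.3 where the others lay between -10.8 and 23.8, and ribosomal protein genes took 54163 CPM in it and 34843 to 40088 CPM elsewhere. Results that rest on this library are therefore also given without it.

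The 8 transcripts covered a wide range of levels. In TPM (a unit corrected for transcript length, computed here from counts and merged exons), Tnf was the most abundant at 253 ± 27.7 with C3a, 415 ± 32.6 with C3aRA and 324 ± 40.6 with oxy-Hb alone (SD, n = 3 each). On that scale Ptgs2, Il1rn, Lcn2 and Saa3 formed a middle tier of 41.4 to 85.4 as group means. With C3a the order inside this tier was not separated by the spread. Ptgs2 stood there at 44.6 ± 19.2, between Lcn2 at 50.1 ± 9.36 and Saa3 at 42.8 ± 12.9. With C3aRA the library ranges of these genes also overlapped. With oxy-Hb alone, Ptgs2 (61.9 to 83.5 over its libraries) and Il1rn (64.2 to 71.2) overlapped each other. Both lay above Lcn2 (44.4 to 56.6), and Lcn2 lay above Saa3 (38.2 to 43.5) by a narrow margin. Il6 and Il1a were about an order of magnitude lower, with group means from 3.23 to 8.20 for Il6 and from 4.17 to 6.14 for Il1a. Il10 was hardly detected. The plot of levels by library shows all 8 genes in CPM.

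**Figure D1:**
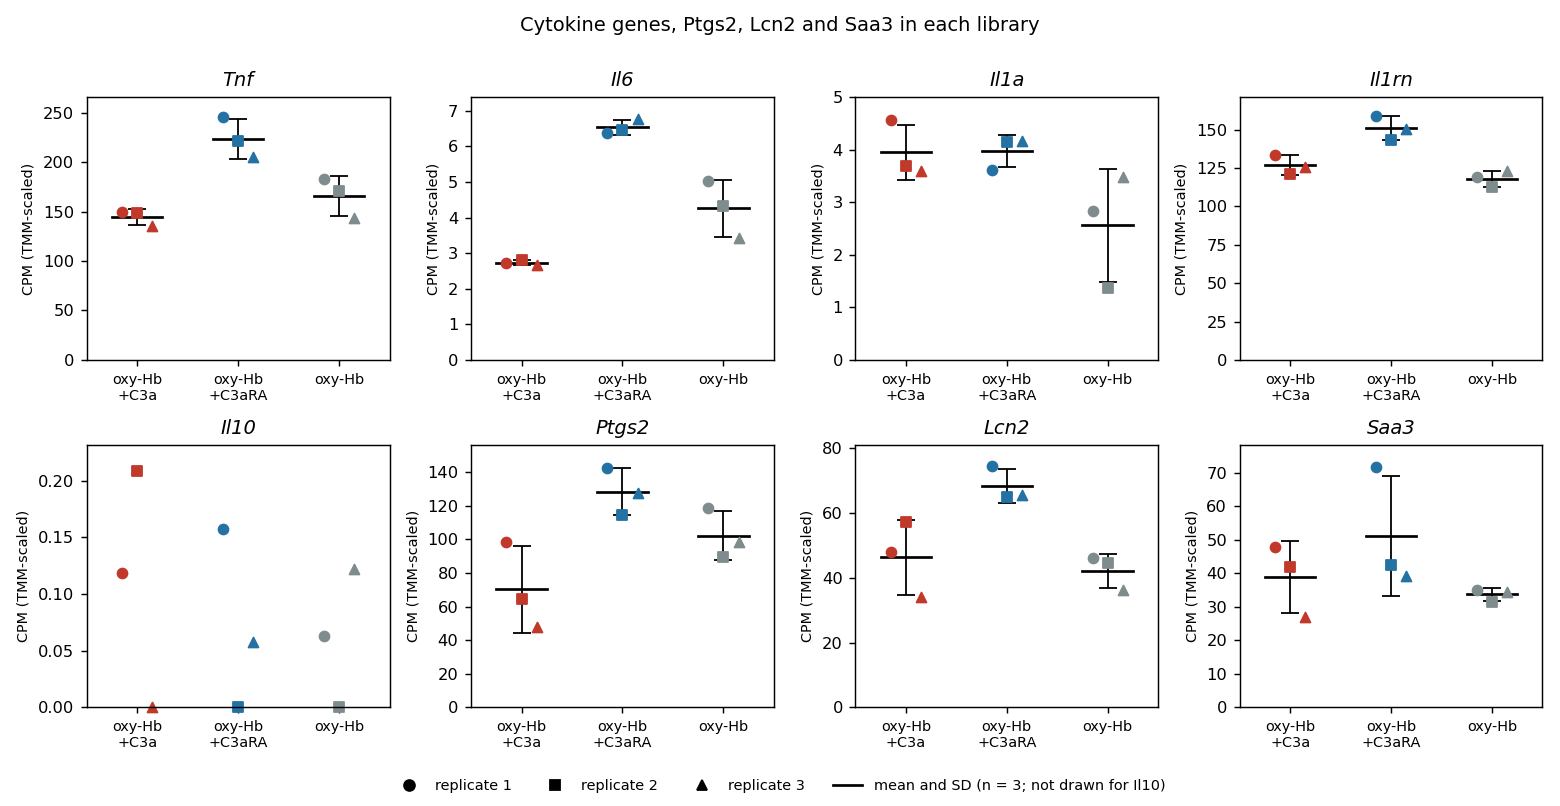
Level of each of the 8 genes in each library, in TMM-scaled CPM (vertical axes, each from 0), by group (horizontal axes). Points are single libraries, with one symbol per replicate number, and lines with bars are the mean and SD of 3 libraries (not drawn for Il10, which had 0 to 4 counts a library). The C3aRA libraries lie above the C3a libraries without overlap for Tnf, Il6, Il1rn, Ptgs2 and Lcn2, and the C3a libraries spread widest for Ptgs2.

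Tnf (ENSMUSG00000024401, chromosome 17, 35199381 to 35202007, minus strand in GRCm38) encodes tumour necrosis factor, made as a membrane protein and released by the protease ADAM17. It had 149, 149 and 135 CPM in the C3a libraries, 245, 221 and 205 CPM in the C3aRA libraries, and 183, 171 and 143 CPM in the oxy-Hb libraries. All 3 C3aRA libraries were the highest of the 9, and the C3a libraries overlapped only with the lowest oxy-Hb library. Il6 (ENSMUSG00000025746, chromosome 5, 30013114 to 30019981, plus strand) encodes interleukin 6, which signals through the shared receptor chain gp130. It had 2.72, 2.81 and 2.66 CPM with C3a, 6.37, 6.48 and 6.76 CPM with C3aRA, and 5.03, 4.34 and 3.42 CPM with oxy-Hb alone. The raw counts behind these were 46, 54 and 45 with C3a, 81, 103 and 117 with C3aRA, and 80, 82 and 56 with oxy-Hb. The 3 groups of Il6 did not overlap, in the order C3a, oxy-Hb, C3aRA.

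Tnf and Il6 also differed in proportion to each other. Per kilobase, the ratio of Tnf to Il6 was 81.3, 78.3 and 75.2 in the C3a libraries, 57.0, 50.6 and 44.9 in the C3aRA libraries, and 54.0, 58.5 and 62.0 in the oxy-Hb libraries. The C3a libraries had the highest ratios without overlap. This ratio was chosen after the values had been seen and was not tested. Across the 9 libraries the log2 levels of Tnf and Il6 had a Pearson r of 0.94, a description of points that share treatments, library preparation and depth.

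The promoters of the 3 genes that passed the test between C3a and C3aRA are shown, with matches to the letters of well known inflammatory binding motifs. Each sequence is the 250 bases before the RefSeq gene start in GRCm38.p6, read 5′ to 3′ on the strand of the gene, and capitals mark matches on either strand to GGNNTTTCC (kappaB-like), TGANTCA (AP-1-like) or TTGCNNAA (C/EBP-like). The regions are chr17:35202008-35202257 on the minus strand for Tnf, chr5:30012864-30013113 on the plus strand for Il6 and chr1:150099781-150100030 on the plus strand for Ptgs2.
Tnf: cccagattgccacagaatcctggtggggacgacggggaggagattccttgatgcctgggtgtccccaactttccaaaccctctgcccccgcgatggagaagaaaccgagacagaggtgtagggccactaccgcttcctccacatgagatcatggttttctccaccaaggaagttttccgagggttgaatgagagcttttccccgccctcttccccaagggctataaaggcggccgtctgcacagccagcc
Il6: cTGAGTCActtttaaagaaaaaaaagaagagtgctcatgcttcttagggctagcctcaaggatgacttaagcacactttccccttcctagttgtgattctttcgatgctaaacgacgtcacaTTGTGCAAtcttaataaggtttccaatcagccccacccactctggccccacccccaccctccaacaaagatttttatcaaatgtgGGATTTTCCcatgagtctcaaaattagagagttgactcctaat
Ptgs2: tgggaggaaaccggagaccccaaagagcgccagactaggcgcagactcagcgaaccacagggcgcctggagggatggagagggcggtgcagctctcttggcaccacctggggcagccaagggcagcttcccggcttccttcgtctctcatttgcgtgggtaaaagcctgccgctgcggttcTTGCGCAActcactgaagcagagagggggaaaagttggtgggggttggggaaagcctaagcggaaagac

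The Il6 window held 1 match of each motif, GGATTTTCC at -43 to -35, TTGTGCAA at -128 to -121 and TGAGTCA at -249 to -243, counted back from -1 at the base before the start. Ptgs2 held 1 match, TTGCGCAA at -69 to -62, and the Tnf window held none of the 3 letter strings, which says nothing of whether the factors bind there. Among 32851 RefSeq promoters, with the same 250 bases searched in each, 4.93% held the kappaB-like string, 6.75% the AP-1-like string and 9.56% the C/EBP-like string. TGAGTCA and TTGCGCAA each match on both strands at one place, and no matches of different motifs overlapped. Of the other members, Il1a held an AP-1-like match, Lcn2 a C/EBP-like match, Saa3 a kappaB-like and a C/EBP-like match, and Il1rn an AP-1-like and a kappaB-like match in different promoters. The promoter table matched 7 of the 8 genes, all but Il10.

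Il1a and Il1rn encode the agonist and the antagonist of one receptor. Il1a (ENSMUSG00000027399, chromosome 2, 129299610 to 129309972, minus strand) had 4.56, 3.70 and 3.60 CPM with C3a, 3.62, 4.15 and 4.16 CPM with C3aRA, and 2.83, 1.38 and 3.48 CPM with oxy-Hb alone. Both additions lay above the oxy-Hb libraries without overlap but by a narrow margin, since the lowest C3a library had 61 counts and the highest oxy-Hb library 57. The oxy-Hb group was itself uneven, with 26 counts in its lowest library. Exons of Il1a overlap by 222 bases with Gm14023 on the opposite strand, which had 43 counts over all 9 libraries, so reads of that stretch cannot be told apart without a stated strand setting.

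Il1rn (ENSMUSG00000026981, chromosome 2, 24336853 to 24351494, plus strand) was far more abundant than Il1a. It had 134, 121 and 126 CPM with C3a, 159, 143 and 151 CPM with C3aRA, and 119, 112 and 123 CPM with oxy-Hb alone. The C3aRA libraries were the 3 highest, while C3a and oxy-Hb overlapped. Per kilobase, the antagonist exceeded the agonist in every library, by 10.4 to 12.4 times with C3a, 12.3 to 15.7 times with C3aRA and 12.6 to 29.1 times with oxy-Hb, where the 29.1 belonged to the library with 26 Il1a counts. Il10 (ENSMUSG00000016529, chromosome 1, 131019845 to 131024974, plus strand) had 2, 4 and 0 counts with C3a, 2, 0 and 1 with C3aRA, and 1, 0 and 2 with oxy-Hb. In 8 of 9 libraries Il10 was at or under the floor of 3 counts, it was not tested, and a difference between groups was not detectable at this depth.

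Ptgs2 (ENSMUSG00000032487, chromosome 1, 150100031 to 150108227, plus strand) had 98.7, 64.5 and 48.0 CPM in the C3a libraries, 143, 115 and 128 CPM in the C3aRA libraries, and 118, 89.7 and 98.7 CPM in the oxy-Hb libraries. C3a replicate 1 lay within the oxy-Hb range, whereas C3a replicates 2 and 3 were the lowest of the 9. The C3a libraries thus varied by 25.8 CPM (SD) around a mean of 70.4 CPM, against an SD of 14.0 CPM with C3aRA and 14.7 CPM with oxy-Hb.

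Lcn2 (ENSMUSG00000026822, chromosome 2, 32384633 to 32388252, minus strand) had 47.9, 57.0 and 34.0 CPM with C3a, 74.4, 65.0 and 65.6 CPM with C3aRA, and 45.9, 44.4 and 36.2 CPM with oxy-Hb alone. The C3aRA libraries were the 3 highest, and the highest C3a library was C3a replicate 2. Saa3 (ENSMUSG00000040026, chromosome 7, 46711998 to 46715700, minus strand) had 47.9, 41.8 and 27.1 CPM with C3a, 71.6, 42.4 and 39.1 CPM with C3aRA, and 35.1, 31.5 and 34.4 CPM with oxy-Hb alone. C3aRA replicate 1 was far above the other 8 libraries for Saa3, and the C3a libraries lay on both sides of the oxy-Hb range. Both genes are also made by neutrophils or other cells, whereas these libraries came from cultures of 1 line. Of 6 markers of T cells and neutrophils, 3 were among the genes listed. These summed to 2.0 to 3.22 CPM with C3a, 0.638 to 1.80 CPM with C3aRA and 0.325 to 0.770 CPM with oxy-Hb. S100a8 stood at 0.26 to 3.08 CPM, Cd4 at 0 to 0.524 CPM and Mpo at 0 in every library, all without TMM scaling. They are levels of these transcripts in BV2 cultures, and their relation to Lcn2 and Saa3 was not tested.

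Some libraries were high or low for many members at once. Among the 7 genes that passed the count filter, C3aRA replicate 1, the shallowest library, was the highest of its group for Tnf, Il1rn, Ptgs2, Lcn2 and Saa3 and the lowest for Il6 and Il1a. C3a replicate 3 was the lowest of its group for 6 of the 7, all but Il1rn. The same count was not made over all tested genes, so it is not known whether this is particular to the members. All 14146 genes that passed the filter were tested in edgeR by its quasi-likelihood test, with Benjamini-Hochberg adjustment over those genes and calls at an adjusted p below 0.05, and the 3 comparisons share libraries pairwise. Il10 did not pass the filter.

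C3a against C3aRA, both in the presence of oxy-Hb, asked how the receptor ligand and C3aRA differed. Tnf, Il6 and Ptgs2 were lower with C3a, and the other 4 tested members did not pass. Il6 showed the largest difference, with 2.73 ± 0.0766 CPM with C3a against 6.54 ± 0.204 CPM with C3aRA (SD, n = 3 each), a log2 fold change of -1.26 ± 0.24 (SE, edgeR adjusted p = 0.0126) or 58.1% less. Tnf averaged 144 ± 8.12 CPM with C3a and 224 ± 20.1 CPM with C3aRA (SD, n = 3 each), a log2 fold change of -0.63 ± 0.11 (SE, edgeR adjusted p = 0.0104). Ptgs2 averaged 70.4 ± 25.8 CPM with C3a and 128 ± 14.0 CPM with C3aRA (SD, n = 3 each), a log2 fold change of -0.87 ± 0.21 (SE, edgeR adjusted p = 0.0354). These are 3 of 7 members called, all lower, where 6.19% of all tested genes were called, 2.87% as higher and 3.32% as lower.

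Lcn2 lay just outside the threshold in the same comparison, at a log2 fold change of -0.56 with a 95% interval of -0.91 to -0.21 (edgeR adjusted p = 0.0572). Il1rn differed by -0.25 on the log2 scale (interval -0.46 to -0.05, edgeR adjusted p = 0.133) and Saa3 by -0.39 (interval -0.89 to 0.12, edgeR adjusted p = 0.33). Il1a differed by -0.01 with an interval of -0.70 to 0.67 (edgeR adjusted p = 0.986), so that a change of over 1.5 times in either direction remains within its error. All 7 log2 fold changes were below 0, with a median of -0.56 against 0.01 over all genes tested. Groups did not overlap for 5 of 7 members, Tnf, Il6, Il1rn, Ptgs2 and Lcn2, and for 28.8% of all tested genes. The plot of differences sets the 3 comparisons side by side.

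**Figure D2:**
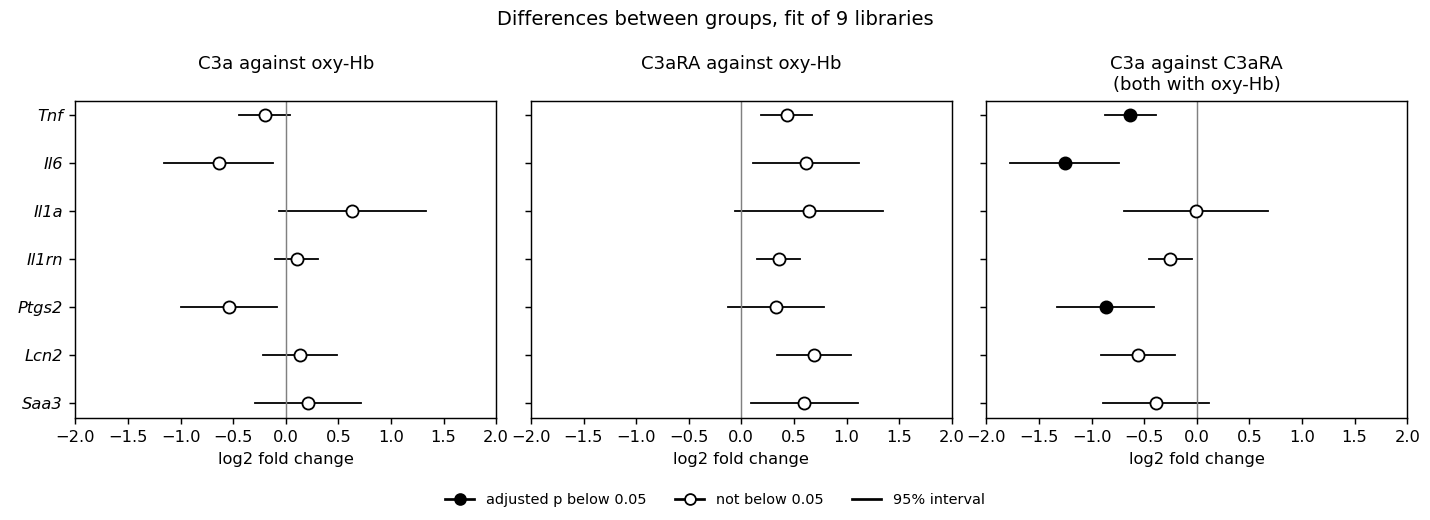
Log2 fold change of the 7 tested genes in the 3 comparisons (horizontal axis, log2 scale), with bars for the 95% interval of the edgeR fit and filled points for an adjusted p below 0.05. In C3a against C3aRA the intervals of Tnf, Il6, Ptgs2, Lcn2 and Il1rn lie below 0, and in C3aRA against oxy-Hb all 7 estimates lie above 0.

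These calls depended on single libraries to different degrees. Over 9 fits that each left out 1 library, the log2 fold change of Tnf ran from -0.69 to -0.56 and was called in 8, and that of Il6 ran from -1.28 to -1.23 and was called in 7. Without C3aRA replicate 1 none of the members was called, with an edgeR adjusted p of 0.0822 for Tnf, 0.0658 for Il6 and 0.14 for Ptgs2, and in that fit 53 genes were called in all. The call of Il6 was also lost without C3aRA replicate 3 (edgeR adjusted p = 0.0598). Ptgs2 ran from -1.18 to -0.64 and was called in 3 of the 9. Leaving out C3a replicate 1, the highest C3a library, gave -1.18 (edgeR adjusted p = 0.00194), and leaving out C3a replicate 2 gave -0.81 (edgeR adjusted p = 0.205).

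Without C3a replicate 2, 12.5% of genes were called and the members called were Tnf, Il6 and Lcn2. Lcn2 then stood at -0.74 (edgeR adjusted p = 0.000251), and this was its call in 1 of the 9 fits. The plot of left-out libraries shows how the adjusted p moved in each fit.

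**Figure D3:**
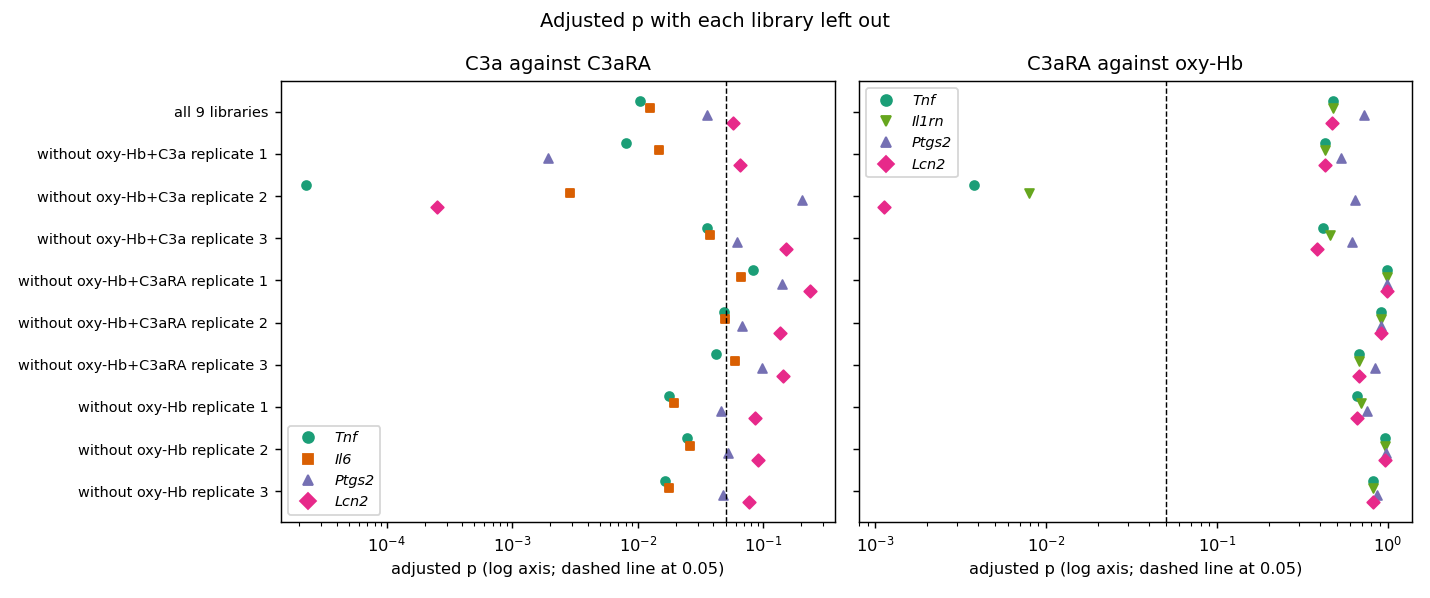
Adjusted p of the edgeR fit (horizontal axes, log scale, dashed line at 0.05) with all 9 libraries and with each library left out (rows), for Tnf, Il6, Ptgs2 and Lcn2 in C3a against C3aRA (left) and Tnf, Il1rn, Ptgs2 and Lcn2 in C3aRA against oxy-Hb (right). On the left all 4 genes lie right of the line without C3aRA replicate 1 (0.0658 or more), and on the right only the fit without C3a replicate 2 puts genes left of it, Tnf, Il1rn and Lcn2.

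C3aRA against oxy-Hb asked what C3aRA added to oxy-Hb. All 7 tested members had higher means with C3aRA, with a median log2 fold change of 0.60 against -0.01 over all genes tested, but none passed the adjusted threshold. No gene did, so 0% of genes were called, although 1153 genes and 5 of the 7 members had an unadjusted p below 0.05. DESeq2 called 11 genes and limma-voom 0, with no member among them. Lcn2, which ranked 23 of all genes by p, had the lowest p of the members, with 68.3 ± 5.27 CPM with C3aRA and 42.2 ± 5.24 CPM with oxy-Hb (SD, n = 3 each), a log2 fold change of 0.69 ± 0.16 (SE, unadjusted p = 0.000801 and adjusted p = 0.467 in edgeR). Groups did not overlap for 6 of 7 members, with C3aRA higher in each and Ptgs2 the exception, and for 22.9% of all tested genes.

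For the other members the edgeR log2 fold changes of C3aRA against oxy-Hb were 0.43 ± 0.11 for Tnf, 0.62 ± 0.24 for Il6, 0.64 ± 0.33 for Il1a, 0.36 ± 0.10 for Il1rn, 0.33 ± 0.21 for Ptgs2 and 0.60 ± 0.23 for Saa3 (SE). The spread that the fit shares among groups includes C3a replicate 2. With the oxy-Hb and C3aRA libraries alone, 4.43% of 13625 genes were called, and Tnf (edgeR adjusted p = 0.00253), Il1rn (0.00493), Ptgs2 (0.0388) and Lcn2 (0.000148) were higher with C3aRA. With all groups but without C3a replicate 2, 3.25% were called, with Tnf, Il1rn and Lcn2 among them. In the authors' deposited table of C3aRA against oxy-Hb, 715 of 22935 genes were past 0.05, 473 higher and 242 lower. The same 4 members were among them, at adjusted p-values of 0.000395 for Tnf, 0.000345 for Il1rn, 0.033 for Ptgs2 and 6.48e-07 for Lcn2. The authors' deposited table gives Il6 an adjusted p of 0.155, Saa3 0.203 and Il1a 0.347. Between the edgeR fits of all 9 libraries and of the 2 groups alone, with the same count filter rule, the log2 fold changes of these 4 genes moved by less than 0.01. Without a count filter, the fit of all 9 libraries called Lcn2 as well (edgeR adjusted p = 0.0278).

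C3a against oxy-Hb asked what the receptor ligand added to oxy-Hb. None of the 7 tested members passed, where 3.94% of all tested genes were called, 0.905% as higher and 3.04% as lower. The members lay on both sides of 0, with 4 above and 3 below, and their median was 0.10 against 0.00 over all genes. Il6 averaged 2.73 ± 0.0766 CPM with C3a and 4.26 ± 0.807 CPM with oxy-Hb (SD, n = 3 each), a log2 fold change of -0.64 with a 95% interval of -1.16 to -0.12 (edgeR, unadjusted p = 0.0197, adjusted p = 0.133). Ptgs2 differed by -0.54 (interval -1.0 to -0.08, edgeR adjusted p = 0.148), and Tnf by -0.20 (interval -0.44 to 0.04, edgeR adjusted p = 0.299).

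On the other side, Il1a averaged 3.95 ± 0.527 CPM with C3a and 2.56 ± 1.08 CPM with oxy-Hb (SD, n = 3 each), a log2 fold change of 0.63 with an interval of -0.07 to 1.33 (edgeR adjusted p = 0.252). Il1rn (0.10, interval -0.10 to 0.31), Lcn2 (0.13, interval -0.22 to 0.49) and Saa3 (0.21, interval -0.30 to 0.72) had intervals that hold 0. Groups did not overlap for Il6, lower with C3a, and Il1a, higher with C3a, 2 of 7 members, and for 27.8% of all tested genes. Without C3a replicate 2, 9.55% of genes were called and again no member. Ptgs2 was called in the fit without C3a replicate 1, at -0.85 (edgeR adjusted p = 0.00848). In the authors' deposited table of C3a against oxy-Hb, 508 of 22935 genes were past 0.05 and no member was among them.

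The receptors, processing enzymes and other cytokines of the same network were counted in the same 3 comparisons. Of 12 tested genes among 22 other cytokines, 12 among 15 receptors and decoys of the members, and 7 among 9 shedding and processing genes, none was called in any of the 3 comparisons with all 9 libraries. Over all tested genes, 3.94% were called in C3a against oxy-Hb, 0% in C3aRA against oxy-Hb and 6.19% in C3a against C3aRA. Lists this short could hold no call at such shares. Without C3a replicate 2, C3a against C3aRA gave 1 lower call in each of these 3 lists, where 12.5% of all genes were called. C3a against oxy-Hb then gave 1 lower call among other cytokines and 1 higher and 1 lower among shedding and processing genes, where 9.55% were called. C3aRA against oxy-Hb gave 1 lower call among other cytokines, where 3.25% were called. Il1b, the secreted partner of Il1a, was at 0.61 ± 0.241 CPM with C3a and 0.694 ± 0.344 CPM with C3aRA (SD, n = 3 each), far below Il1rn. Among receptors, Tnfrsf1b, the second TNF receptor, stood at 71.9 ± 4.57 CPM with C3a and 69.3 ± 7.54 CPM with C3aRA, and Il6st, the gp130 chain, at 85.5 ± 24.7 CPM with C3a and 111 ± 5.77 CPM with C3aRA (SD, n = 3 each). Adam17, the TNF releasing protease, stood at 377 ± 48.0 CPM with C3a and 396 ± 8.59 CPM with C3aRA (SD, n = 3 each). Il10ra, the ligand-binding chain of the interleukin 10 receptor, was detected at 11.5 ± 1.46 CPM with C3a and 15.9 ± 2.14 CPM with C3aRA, a difference that did not pass (edgeR adjusted p = 0.0947).

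In the prostanoid list, 13 of 21 genes were tested. The same 1 gene was called in C3a against oxy-Hb and in C3a against C3aRA, where 3.94% and 6.19% of all tested genes were called. In a list of 13, 1 call is near these shares. Without C3a replicate 2, 14 were tested, and 1 was higher and 1 lower in C3a against C3aRA, where 12.5% of all genes were called. Ptges3, a cytosolic prostaglandin E synthase also known as the HSP90 cochaperone p23, had 178, 234 and 209 CPM with C3a, 136, 148 and 142 CPM with C3aRA, and 146, 158 and 153 CPM with oxy-Hb alone. Its C3a libraries were the 3 highest, opposite in direction to Ptgs2. The log2 fold change of Ptges3 was 0.54 against C3aRA (edgeR adjusted p = 0.0157) and 0.44 against oxy-Hb (edgeR adjusted p = 0.0389), the second called in only 2 of 9 fits that left out 1 library. Ptgs1, the constitutive cyclooxygenase, averaged 55.2 ± 2.11 CPM with C3a and 43.7 ± 1.33 CPM with C3aRA and did not pass (edgeR adjusted p = 0.104). The inducible synthase Ptges stood at 18.7 ± 5.25 CPM with C3a and 20.0 ± 0.896 CPM with C3aRA (SD, n = 3 each).

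Transcription factors and signalling genes that act on these cytokines were counted next. Of 38 tested genes of transcriptional and signalling control, 4 were lower with C3a than with C3aRA and none higher, where 3.32% of all tested genes were lower, with a list median of -0.20 against 0.01 over all genes. Junb, an AP-1 subunit, had 48.1, 47.6 and 35.4 CPM with C3a, 95.9, 83.1 and 96.1 CPM with C3aRA, and 81.5, 80.1 and 59.8 CPM with oxy-Hb alone. Per1, a clock gene and glucocorticoid target, had 21.03, 14.6 and 17.7 CPM with C3a, 37.7, 31.2 and 40.1 CPM with C3aRA, and 41.7, 34.8 and 39.4 CPM with oxy-Hb. For both genes the C3a libraries were the 3 lowest, without overlap. Their log2 fold changes against C3aRA were -1.07 ± 0.15 for Junb and -1.03 ± 0.15 for Per1 (SE, edgeR adjusted p = 0.0044 and 0.00543), and both were called in all 9 fits that left out 1 library.

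Against oxy-Hb, 2 of the 38 tested genes of this list fell with C3a, where 3.04% of all tested genes were called lower. These were Junb, by 0.76 (edgeR adjusted p = 0.0139), and Per1, by 1.12 (edgeR adjusted p = 0.00268) on the log2 scale. The call of Junb was lost without oxy-Hb replicate 1 (edgeR adjusted p = 0.11), without oxy-Hb replicate 2 (0.0807) and with the 2 groups alone (0.0674), while Per1 was called in all 9 fits that left out 1 library. Relb, an NF-kB subunit, averaged 8.19 ± 0.729 CPM with C3a and 13.9 ± 2.33 CPM with C3aRA (SD, n = 3 each, log2 fold change -0.77, edgeR adjusted p = 0.0303, called in 5 of 9 such fits). Nfkbiz, an atypical inhibitor of NF-kB that acts in the nucleus and is needed for Il6 and Lcn2 induction in mouse macrophages, averaged 51.2 ± 11.9 CPM with C3a and 86.1 ± 4.07 CPM with C3aRA (SD, n = 3 each, log2 fold change -0.75, edgeR adjusted p = 0.0142, called in 7 of 9). The NF-kB genes Nfkb1 (-0.19), Rela (-0.30), Nfkbia (-0.09) and Tnfaip3 (-0.56, edgeR adjusted p = 0.0746) did not pass in this comparison. Neither did Cebpb (-0.15).

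Among 17 tested genes of mRNA decay and translation control, 1 was called, a share near the 6.19% of all genes. Zfp36, which encodes tristetraprolin, had 13.5, 16.8 and 16.3 CPM with C3a, 35.9, 25.2 and 32.4 CPM with C3aRA, and 32.4, 24.01 and 19.3 CPM with oxy-Hb alone. The C3a libraries were again the 3 lowest. The log2 fold change against C3aRA was -1.0 ± 0.19 (SE, edgeR adjusted p = 0.012, called in 7 of 9 such fits), and against oxy-Hb it was -0.70 (edgeR adjusted p = 0.0558). Zfp36 was lower in the same comparison as Tnf, an mRNA whose decay tristetraprolin is known to promote. Tristetraprolin protein and mRNA decay were not measured, and a link between the 2 differences was not tested. Without C3a replicate 2, 12 of 38 genes of transcriptional and signalling control and 2 of 17 of mRNA decay were lower with C3a than with C3aRA. In that fit 955 of 14613 tested genes were called lower, and 12.5% in either direction. Neither list held a higher call, so in either direction the decay list again lay near all genes. In C3a against oxy-Hb the same fit gave 9 lower calls in the transcription list and 2 lower and 1 higher in the decay list. There 811 of 14613 genes were called lower and 584 higher. In C3aRA against oxy-Hb it gave 1 higher and 1 lower call in these lists, where 3.25% of all genes were called. C3aRA against oxy-Hb gave no call in any of the 6 lists with all libraries. The plot of called regulators shows the 6 genes by library.

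**Figure D4:**
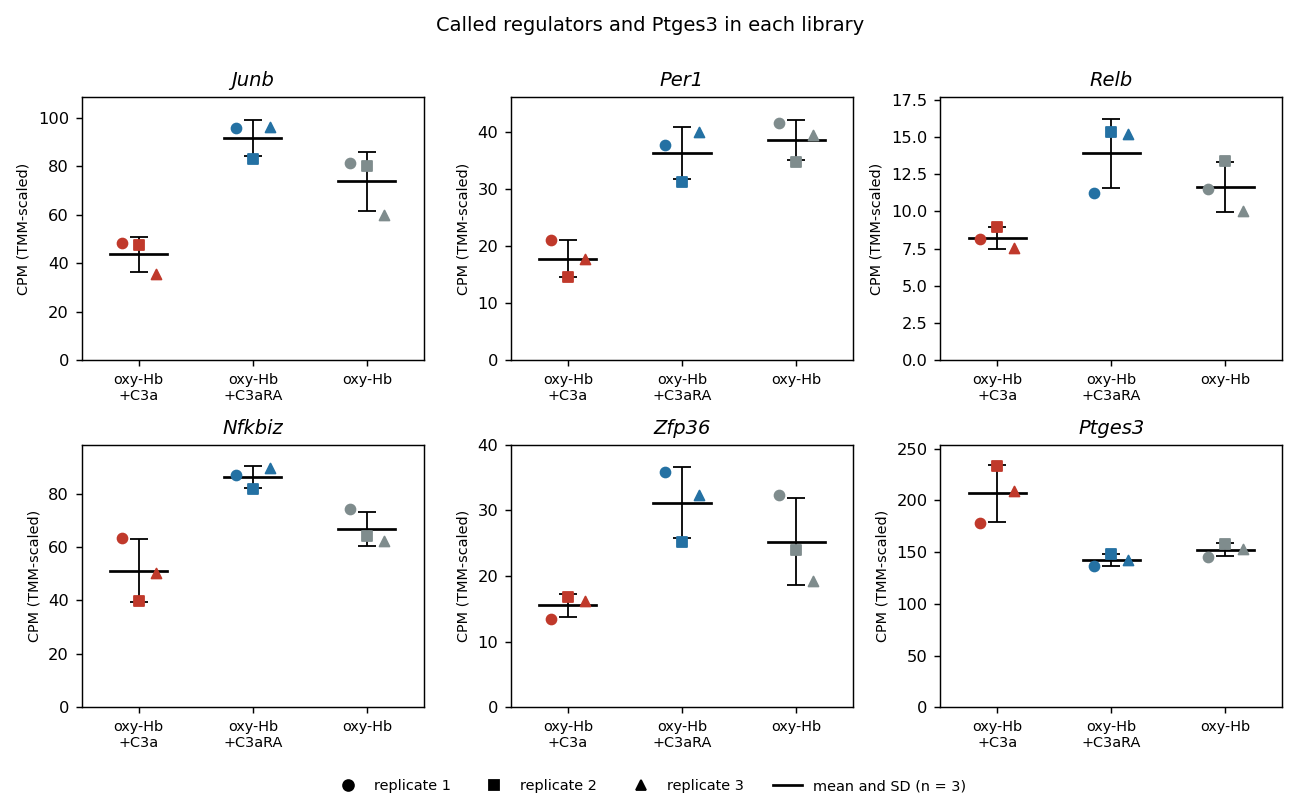
Level of Junb, Per1, Relb, Nfkbiz, Zfp36 and Ptges3 in each library, in TMM-scaled CPM (vertical axes, each from 0), by group (horizontal axes), with one symbol per replicate number and lines with bars for the mean and SD of 3 libraries. The C3a libraries are the 3 lowest for Junb, Per1, Relb and Zfp36 and the 3 highest for Ptges3.

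The members also differed in how closely they followed each other over the 9 libraries. Apart from Tnf with Il6, the highest Pearson r of log2 levels were 0.85 for Tnf with Lcn2, 0.81 for Il6 with Ptgs2 and 0.80 for Tnf with Ptgs2. Il1a stood apart, at 0.05 with Tnf, -0.04 with Il6 and 0.62 with Il1rn. These values describe points that share treatment, library and depth. By the same measure, the genes most like a member among 9503 or 9504 candidates were Tmod1, a tropomodulin that caps actin filaments, for Tnf (0.98), Adat2, a subunit of a tRNA deaminase, for Il6 (0.97), and Mxd1, a MYC network repressor, for Ptgs2 (0.97). For Lcn2 it was Ccdc181 (0.99), with the chemokine gene Ccl3 the third (0.97), for Saa3 the p38 kinase activator Map2k6 (0.97), for Il1rn the ubiquitin ligase gene March7 (0.97) and for Il1a Ufsp2, a protease of the UFM1 modifier (0.94). High values are bound to occur when the best of so many genes is taken over 9 points.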

How the data were processed

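The series comprised 12 mRNA-seq samples of BV2 cells, and 9 libraries in 3 groups of 3 were analysed. The 2 tables that the authors deposited list raw read counts per Ensembl gene for 6 libraries each, with the oxy-Hb counts the same in both (0 differed), so all 9 entered 1 fit. The authors' deposited tables also hold log2 fold changes and p-values. The builds were GRCm38 and mm10 per the submitters' processing notes. Not given in the sources used here are the aligner, the counting tool with its use of strand, and how the authors tested. A spreadsheet had turned 9 symbols into dates, which were restored from identifiers.

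The analysis used edgeR 4.0.16 (R 4.3.3). filterByExpr (minimum count 10) kept 14146 genes, which were scaled with TMM and tested by robust quasi-likelihood F tests, 1 coefficient per group, with Benjamini-Hochberg adjustment over all genes and calls at an adjusted p below 0.05. The biological coefficient of variation was 15.8%. Code was tested on simulated data. Replicates were compared by a chi-square per gene, which was 5.26 or more for every pair, so that all 9 were kept as separate libraries. Levels per kilobase used the merged exons of GENCODE vM21, where 22908 identifiers were found.

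The 8 genes and all lists were chosen with earlier results of these data known. All 8 are named. Of the pathway lists, called genes (at most 4 per list and comparison) and receptors or partners of the members are named, and for each member the gene with the highest correlation over the libraries. The NF-kB genes, Cebpb and Ptgs1 were named after their values were seen. Alternatives were total-count, upper quartile and DESeq2 1.42.0 scaling, other count filters, DESeq2's Wald test, limma-voom (limma 3.58.1), fits of 2 groups, a replicate block and leaving out each library. Fits of 2 groups without C3a replicate 2, and every alternative for the called pathway genes, were chosen after seeing the data.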

Additional observations from a re-analysis of the deposited data

How the results depend on the processing

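For single genes, 495 values under an alternative kept their direction and side of the threshold, 38 lost a call, 16 gained one and 8 changed sign. The sign changes were those of Il1a in C3a against C3aRA, near 0 (0.0080 with upper quartile scaling, -0.119 to 0.0613 with 1 library left out, and 0.0276 with the 2 groups alone and without C3a replicate 2), and of Lcn2 in C3a against oxy-Hb (-0.0485 without C3a replicate 2, up to 0.318 with another library left out, and -0.0526 with the 2 groups alone and without C3a replicate 2). The cause was not tested. Genes called in C3a against oxy-Hb numbered 1033 without a count filter, 1353 with DESeq2, 99 with the 2 groups alone, 1101 when these also lacked C3a replicate 2, and 54 to 1638 over the fits that left out 1 library, with 0 to 1 members. The share of these calls that were lower moved from 77.1% to 95.1% with total-count scaling. In C3aRA against oxy-Hb, 8 genes were called without a count filter, with 1 member (Lcn2), 11 with DESeq2, 603 with the 2 groups alone, with 4 members, and 0 to 475 with 1 library left out, with 0 to 3 members. In C3a against C3aRA, 1521 were called with DESeq2, 118 with the 2 groups alone, 1938 when these also lacked C3a replicate 2, and 53 to 1827 with 1 library left out, with 0 to 3 members. There the call of Ptgs2 was also lost without a count filter (adjusted p = 0.0977), with the 2 groups alone (0.0903) and when these lacked C3a replicate 2 (0.322), while Lcn2 was called with total-count scaling (0.0478), without a count filter (0.00659), with DESeq2 (0.0247) and, with the 2 groups alone, without C3a replicate 2 (0.000293). With a mean of at least 5 CPM required, Il6 was not tested. Same-numbered libraries correlated at -0.04 to 0.17 in their deviations and others at -0.14 to 0.08, with 6 of 9 libraries closest to their own number. Pairing by number is not stated, and the main fit did not use it. Whether same-numbered libraries were handled together was not tested. The replicate block gave 835, 0 and 1210 calls in the 3 comparisons, with 1 member, Ptgs2, in C3a against oxy-Hb (-0.57), 0 in C3aRA against oxy-Hb and 4 in C3a against C3aRA. Il10, Il1a (26 to 77 counts a library) and Il6 (45 to 117 counts a library) are limited by depth.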
